A study of Mus musculus with 23 samples.

Results

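Macrophages taken from around an implanted poly(ethylene glycol) (PEG) hydrogel were compared between day 14 and day 2 after implantation. The 6 libraries of this comparison, 3 at day 14 and 3 at day 2, were chosen by cell type and day from the 23 RNA sequencing libraries of the series. All implants lay under the skin of wild-type C57BL/6J mice, and the tissue and the gel were digested together with Liberase TM, an enzyme blend that frees cells from matrix. The series describes its macrophages as Cx3cr1-positive and Ly6C-low and its monocytes as Cx3cr1-positive and Ly6C-high, so the cells of both days carry the fractalkine receptor Cx3cr1 and lack high surface Ly6C. The other libraries used beside them were macrophages at day 28 (n = 3), macrophages from mice without an implant (n = 2), and monocytes from mice without an implant and at days 2, 14 and 28 (n = 3 each). The sources used here state neither the age nor the sex of the mice, and they describe the libraries of a group as biological replicates. A sort by these surface markers does not fix which other Cx3cr1-positive cells a library holds, so markers of other cell types are given beside the results.

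PEG gels are soft synthetic polymers swollen with water that serve to carry cells or drugs. The body answers such a material with the foreign body response: neutrophils and monocytes arrive first, macrophages settle on the surface and can fuse into giant cells, and a collagen capsule forms around the implant. Macrophages are the main cells of this response. They release chemokines and cytokines early, take up debris and dying cells, and show protein fragments to T cells on major histocompatibility complex (MHC) class II molecules.

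Library totals of the 6 libraries ran from 9303153 to 28454289 counts, the smallest being day 2 library C. Levels below are counts scaled to a common library size with TMM factors (CPM), in library order A, B and C. The 12 macrophage markers, among them Lyz2, Cd68, Csf1r, Adgre1 and the C1q genes, summed to 79499.8, 69839.9 and 133193 CPM at day 14, against 80601, 75864 and 70630 CPM at day 2. Lyz2 weighs heavily in this sum, with 5.79%, 5.28% and 8.73% of all counts at day 14. It was also the most abundant gene in every monocyte library, so the sum does not tell macrophages from monocytes. Of the 12, 0 passed the edgeR test described below (4 with an unadjusted p under 0.05), against 0 by DESeq2 and 3 by limma voom. Cx3cr1 itself, the gene of the sort, stood at 61.1, 52.4 and 84.9 CPM at day 14, against 25.6, 28.6 and 31 CPM at day 2 (log2 fold change 1.22 ± 0.37, standard error, edgeR adjusted p = 0.19). Libraries of the same day had rank correlations of 0.942 to 0.962, against 0.927 to 0.953 between the days. On the first principal component, with 34.7% of the variance, the 3 day 14 libraries scored 21.02 to 78.93, against -73.9 to -51.04 for the 3 day 2 libraries, with day 14 library C nearest to day 2. Mitochondrially encoded genes took 0.985%, 1.15% and 1.76% of counts at day 14, against 2.01%, 4.35% and 1.86% at day 2.

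Of 16260 genes tested, 32 rose and 45 fell at day 14 relative to day 2, and 16183 did not pass. A gene is said to have risen or fallen if its p by edgeR's quasi-likelihood test, adjusted by Benjamini-Hochberg over all genes tested, was under 0.05, and the log2 fold changes below are day 14 over day 2 with their standard error. The called genes were 0.474% of all genes tested, 0.197% higher and 0.277% lower, and 1726 genes had an unadjusted p under 0.05. The p-values set each difference against the spread between libraries within groups, which was estimated from all 23 libraries of the series. The rises had a median log2 fold change of 2.39 and sizes of 1.10 to 7.61. The falls had a median of -3.92 and sizes of 1.18 to 9.09, and the median over all genes tested was 0.02. In each of the 77 genes the 3 day 14 libraries did not overlap the 3 day 2 libraries, which was also so in 2882 of the 16260 genes tested (17.7%). The test chose these genes for such a separation, so nothing is read from it.

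**Figure D1:**
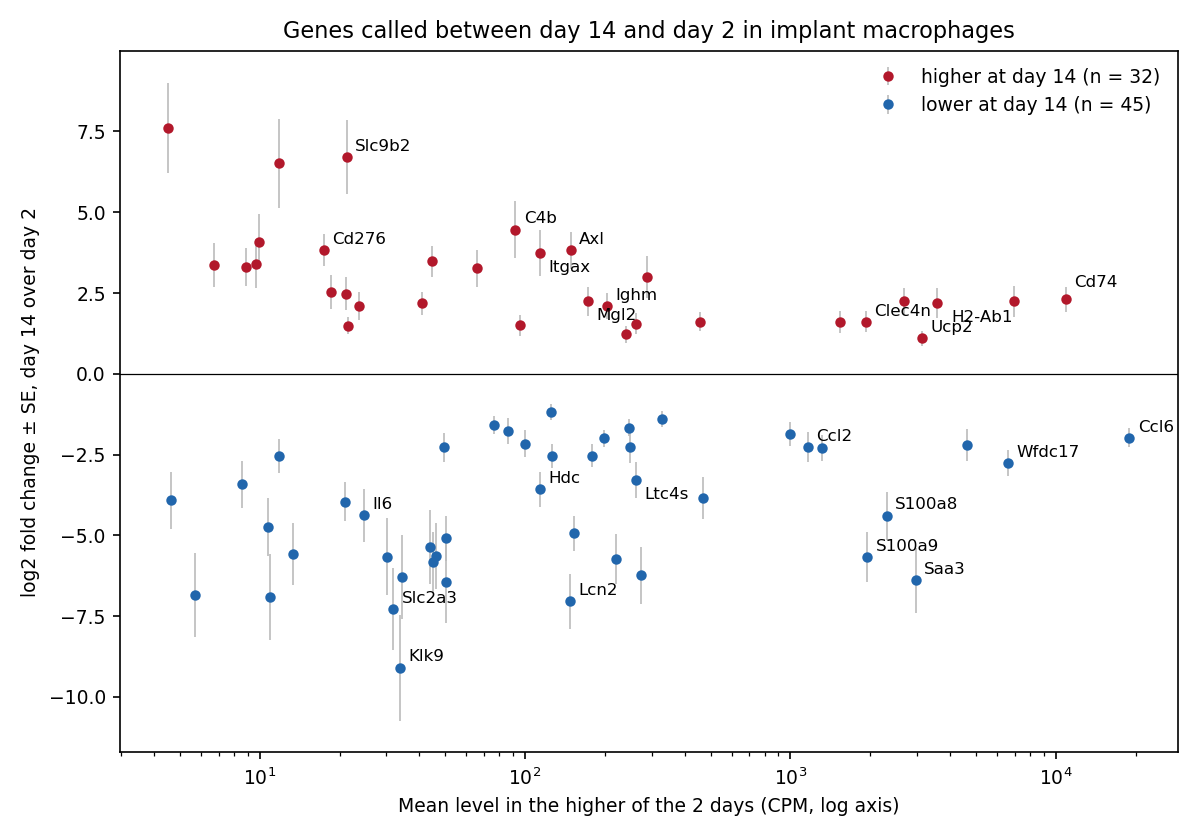
The 77 called genes, with the log2 fold change of day 14 over day 2 macrophages (points, bars are the standard error) against the mean CPM on the day with the higher mean (log axis). The 32 rises include genes of very high level such as Cd74, and the falls reach down to Klk9 at -9.09.

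The number of calls depended on single libraries. It was 10 higher and 24 lower without day 2 library A, 8 and 34 without day 2 library B, 32 and 34 without day 2 library C, 13 and 19 without day 14 library A, 10 and 19 without day 14 library B, and 60 and 48 without day 14 library C. Of the 77 genes, 23 were called in all 6 of these fits: Cd74, Axl, Slc9b2, Cd276, Olfml3 and Abcg3 among the rises, and 17 falls that included Lcn2, S100a9, Saa3, Retnlg, Chil1, Ccl6, Wfdc17 and Hdc. The falls Asprv1, Ccl2, Glipr2, Stfa2l1 and Wfdc18 were called in 0 of the 6. With DESeq2, 148 genes were higher and 186 lower, and with limma voom 261 and 424.

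Among 17 tested genes of MHC class II antigen presentation, 6 rose, 0 fell and 11 did not pass (35.3% called), with a list median of 1.23. The 6 were the invariant chain Cd74, which guides class II molecules to the endosome, the chain genes H2-Ab1, H2-Aa and H2-Eb1, the peptide-loading chaperone chain H2-DMb1, and Ciita, the coactivator that switches class II genes on. Together the 17 genes summed to 34939.9, 38542 and 33573 CPM at day 14, against 14416, 9217 and 19107 CPM at day 2.

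Cd74 stood at 12186, 12668 and 7922 CPM at day 14, against 2092, 1003 and 3538 CPM at day 2 (2.30 ± 0.39, edgeR adjusted p = 0.0055). Each day 14 library lay far above the highest day 2 value, and library B was the lowest at day 2. H2-Ab1 stood at 6963, 8375 and 5578 CPM at day 14, against 1572, 669 and 2143 CPM at day 2 (2.25 ± 0.48, edgeR adjusted p = 0.030). H2-Aa stood at 3452, 4155 and 3074 CPM at day 14, against 771, 289.8 and 1264 CPM at day 2 (2.20 ± 0.46, edgeR adjusted p = 0.027). The libraries ranked alike in these chain genes, with B highest at day 14 and lowest at day 2. H2-Eb1 stood at 2587, 3140.2 and 2279 CPM at day 14, against 549.8, 229.8 and 918 CPM at day 2 (2.24 ± 0.43, edgeR adjusted p = 0.017). H2-DMb1 had 449, 487 and 432 CPM at day 14, against 142, 109 and 198 CPM at day 2 (1.61 ± 0.29, edgeR adjusted p = 0.010). Ciita was far less abundant, at 22, 24.6 and 9.33 CPM at day 14, against 2.79, 1.69 and 5.56 CPM at day 2 (2.53 ± 0.52, edgeR adjusted p = 0.026). Its day 14 library C lay nearest to day 2, without overlap. Per kilobase of exon, Cd74 averaged 6507 CPM at day 14 and 1317 CPM at day 2, and H2-Ab1 averaged 2715 CPM at day 14 and 569 CPM at day 2.

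The class II members that did not pass included the other peptide-loading chain H2-DMa, with 337, 410.2 and 377 CPM at day 14, against 168, 149.7 and 245 CPM at day 2 (1.00 ± 0.26, edgeR adjusted p = 0.095). The costimulator Cd86 had 232, 204 and 198 CPM at day 14, against 158, 128 and 141 CPM at day 2 (0.57 ± 0.28, edgeR adjusted p = 0.48). The cathepsin Ctss, which trims the invariant chain, averaged 10419 CPM at day 14 and 8699 CPM at day 2, and its libraries overlapped. The number of class II members that rose was 1 without day 2 library A, 1 without day 2 library B, 2 without day 14 library A and 1 without day 14 library B, and the list median stayed between 0.91 and 1.75 whichever library was left out. H2 genes are close relatives, and since the sources do not state how reads that match several of them were handled, the split of reads among them is uncertain. Dendritic cells also carry class II molecules. Their 12 markers summed to 67.3, 143 and 67.5 CPM at day 14, against 61.8, 22 and 148 CPM at day 2, with 0 of 12 called by edgeR, DESeq2 or limma voom and 0 with an unadjusted p under 0.05. Of the 12 fold changes 10 were positive and 2 negative. Their median was 0.31, and it ran from -0.10 to 1.29 with 1 library left out. The part of dendritic cells in the rise of class II genes was not tested.

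The promoters of class II genes carry paired elements, the X box and the Y box, at which Ciita is recruited. To show the sequence that these genes share, the RefSeq windows from 250 bases before to 50 bases after the gene start (GRCm38.p6) are printed for the 3 called class II chains with an entry, H2-Aa (chr17:34287774-34288073, minus strand), H2-Eb1 (chr17:34305617-34305916, plus strand) and H2-DMb1 (chr17:34152941-34153240, plus strand). Capitals mark the X box core searched for, CTNGNAACT, and after it the Y box core, TGATTGG.

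H2-Aa: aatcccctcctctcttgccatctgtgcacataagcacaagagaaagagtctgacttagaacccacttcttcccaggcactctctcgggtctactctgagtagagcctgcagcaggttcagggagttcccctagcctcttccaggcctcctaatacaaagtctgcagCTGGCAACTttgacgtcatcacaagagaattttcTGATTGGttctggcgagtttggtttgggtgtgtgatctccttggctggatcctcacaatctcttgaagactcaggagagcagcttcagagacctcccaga
H2-Eb1: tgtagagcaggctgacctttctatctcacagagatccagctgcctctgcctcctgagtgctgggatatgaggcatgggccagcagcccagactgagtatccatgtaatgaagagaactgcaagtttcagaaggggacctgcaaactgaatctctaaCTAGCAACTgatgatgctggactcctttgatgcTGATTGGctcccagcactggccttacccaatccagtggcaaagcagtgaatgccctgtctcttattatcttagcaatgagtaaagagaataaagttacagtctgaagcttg
H2-DMb1: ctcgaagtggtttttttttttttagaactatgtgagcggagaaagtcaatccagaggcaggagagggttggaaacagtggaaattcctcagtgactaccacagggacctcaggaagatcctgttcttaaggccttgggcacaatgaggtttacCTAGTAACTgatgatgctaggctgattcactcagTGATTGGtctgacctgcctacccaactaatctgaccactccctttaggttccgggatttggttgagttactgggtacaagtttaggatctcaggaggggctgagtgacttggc

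The 2 cores were separated by 25 bases in H2-Aa, 24 in H2-Eb1 and 25 in H2-DMb1. Searched on both strands, TGATTGG was in 7.82% and CTNGNAACT in 4.1% of 32851 promoter windows of the same length, and both were in 0.35%. Of the 32 genes that rose, 21 had a window, and these 3 held both cores. The motifs were picked after the genes were known, so the matches are a description.

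The receptor tyrosine kinase Axl, which binds the bridging protein Gas6 on dying cells, rose at day 14. Axl (chr7:25757273-25788705, minus strand, GRCm38) stood at 195, 164 and 89 CPM at day 14, against 8.57, 4.4 and 19.3 CPM at day 2 (3.82 ± 0.58, edgeR adjusted p = 0.0020). The lowest day 14 library, C, lay well above the highest day 2 library, also C. It was the only called gene among 28 tested efferocytosis genes (3.57% called, list median 0.37). Its relative Mertk had 67, 73.2 and 44.5 CPM at day 14, against 26.3, 51.8 and 29.1 CPM at day 2 and did not pass (0.78 ± 0.52, edgeR adjusted p = 0.57). The ligand Gas6 had 85.6, 314 and 122 CPM at day 14, against 16, 31.1 and 21.3 CPM at day 2. The days did not overlap in Gas6, but it did not pass either (2.93 ± 0.79, edgeR adjusted p = 0.12).

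Itgax, the integrin chain known as CD11c, was low at day 2 and rose at day 14. Itgax (chr7:128129547-128150657, plus strand, GRCm38) stood at 99.2, 62.7 and 180.3 CPM at day 14, against 9.33, 2.26 and 14.5 CPM at day 2 (3.74 ± 0.72, edgeR adjusted p = 0.017). Slc9b2, a sodium-proton exchanger of osteoclasts, had 9.33, 10.2 and 44.5 CPM at day 14, against 0.521, 0 and 0 CPM at day 2 (6.71 ± 1.14, edgeR adjusted p = 0.0079). In both genes day 14 library C was the highest, and the day 2 libraries lay far below every day 14 library. These 2 were the members that edgeR called in a list of 30 genes tied to giant cells and osteoclasts (6.67% called, list median 0.77), and 1 was called without day 2 library A or without day 2 library B. DESeq2 and limma voom each called 6 members higher and 1 lower.

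The other 28 members did not pass edgeR, and of the 30 fold changes 23 were positive and 7 negative. Some members that make or mark fused cells were higher in every day 14 library. The fusion protein gene Dcstamp had 49.5, 31.7 and 34.5 CPM at day 14, against 6.87, 2.43 and 10.1 CPM at day 2 (2.60 ± 0.81, edgeR adjusted p = 0.22). Its partner Ocstamp had 20.6, 14.2 and 18.3 CPM at day 14, against 2.56, 0.7 and 7.13 CPM at day 2 (2.42 ± 0.85, edgeR adjusted p = 0.30). The collagen-cleaving cathepsin Ctsk had 345, 304 and 1269 CPM at day 14, against 196, 107 and 160.2 CPM at day 2 (2.05 ± 0.75, edgeR adjusted p = 0.33), with day 14 library C far above the other libraries. Acp5, the tartrate-resistant acid phosphatase, had 253, 285 and 519 CPM at day 14, against 144, 71 and 175 CPM at day 2 (1.44 ± 0.37, edgeR adjusted p = 0.10). DESeq2 called Dcstamp (adjusted p = 0.049) and Acp5 (adjusted p = 0.020), as did limma voom (adjusted p = 0.0040 for Dcstamp and 0.015 for Acp5). In the opposite direction, the list's gelatinase gene Mmp9 had 36.2, 22.1 and 29.9 CPM at day 14, against 223, 177 and 165 CPM at day 2. Its libraries did not overlap either, and it did not pass edgeR (-2.68 ± 0.82, adjusted p = 0.21), while DESeq2 (adjusted p = 0.035) and limma voom (adjusted p = 8.4e-04) called it lower.

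Of 32 tested genes typical of resident tissue macrophages, 2 rose, 1 fell and 29 did not pass, and the list median was 0.60. DESeq2 called 4 members higher and 1 lower, and limma voom called 11 higher and 2 lower. The lectin Mgl2 had 219, 211 and 86.1 CPM at day 14, against 31.7, 26.7 and 50.9 CPM at day 2 (2.24 ± 0.44, edgeR adjusted p = 0.018). The prostaglandin-degrading enzyme Hpgd had 20.1, 32.9 and 10.4 CPM at day 14, against 3.98, 1.56 and 6.16 CPM at day 2 (2.48 ± 0.52, edgeR adjusted p = 0.027). In both, library C was the lowest at day 14 and the highest at day 2. The member that fell was Ltc4s, the leukotriene C4 synthase, at 23.3, 24.4 and 33.5 CPM at day 14, against 257, 396 and 137 CPM at day 2 (-3.28 ± 0.56, edgeR adjusted p = 0.0063). Without day 14 library A or without day 14 library B, 0 members of the list rose and 0 fell; without day 2 library A or without day 2 library B, 0 rose and 1 fell. Without day 2 library C 4 rose.

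Genes known from mouse microglia and other long-lived macrophages were among the rises outside that list. Fcrls, an Fc receptor-like molecule, had 345, 326 and 193 CPM at day 14, against 25.2, 22.4 and 60.3 CPM at day 2 (3.01 ± 0.65, edgeR adjusted p = 0.036). Gpr34, a receptor for lysophosphatidylserine, had 76, 79 and 42.9 CPM at day 14, against 2.56, 5.39 and 13 CPM at day 2 (3.27 ± 0.57, edgeR adjusted p = 0.0078). The secreted glycoprotein Olfml3 had 23.3, 45.4 and 65.4 CPM at day 14, against 3.55, 3.58 and 4.95 CPM at day 2 (3.48 ± 0.49, edgeR adjusted p = 0.0012). Of these, Fcrls and Gpr34 stood below unimplanted tissue on both days. Fcrls had means of 288 CPM at day 14, 36 CPM at day 2 and 701 CPM in controls. Gpr34 had means of 66 CPM at day 14, 7 CPM at day 2 and 117 CPM in controls. Olfml3 averaged 44.7 CPM at day 14, 4.03 CPM at day 2 and 24 CPM in controls. Lyve1, a hyaluronan receptor, had 93.3, 63 and 32.2 CPM at day 14, against 4.07, 30.5 and 14.4 CPM at day 2. The 2 control libraries averaged 556 CPM of Lyve1. Its days did not overlap, and it did not pass edgeR (1.94 ± 0.83, adjusted p = 0.42) or DESeq2 (adjusted p = 0.48). By limma voom Lyve1 was called higher (adjusted p = 0.012). Timd4, a receptor for dying cells, averaged 0.874 CPM at day 14 and 0.786 CPM at day 2, with 87.5 CPM in controls. The mannose receptor Mrc1 averaged 446 CPM at day 14 and 247 CPM at day 2, with overlapping libraries.

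Among complement genes, 2 of 25 tested rose, 0 fell and the list median was 0.46. One was Itgax, a complement receptor chain, and the other C4b, the classical pathway component. C4b had 176, 77.5 and 22.3 CPM at day 14, against 2.37, 2.55 and 8.09 CPM at day 2 (4.46 ± 0.89, edgeR adjusted p = 0.021), and the day 14 libraries spread widely, A being the highest. Its near-identical neighbour C4a, which was in no list, had 18.3, 8.69 and 2.78 CPM at day 14, against 0.331, 0.247 and 1.45 CPM at day 2 (4.09 ± 0.85, edgeR adjusted p = 0.027). Since reads may be split between the pair, their 2 calls cannot be counted as separate. Fibroblasts also make C4b, and the 14 fibroblast markers summed to 86.1, 84 and 27.3 CPM at day 14, against 59.3, 6.96 and 11.6 CPM at day 2, with none at 0 on either day. Their part in the rise of C4b was not tested. The number of complement genes that rose was 0 without day 2 library A or without day 2 library B, 1 without day 14 library A or without day 14 library B, and 3 without day 2 library C. The initiator C1qa had 1462, 1407 and 1479.6 CPM at day 14, against 608, 1169.8 and 764 CPM at day 2 and did not pass (0.77 ± 0.30, edgeR adjusted p = 0.38).

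The remaining rises included single receptors and surface molecules. Cd276, a member of the B7 family that modulates T cells, had 16.6, 15.5 and 20.4 CPM at day 14, against 1.85, 0.905 and 0.846 CPM at day 2 (3.83 ± 0.50, edgeR adjusted p = 9.7e-04), the smallest adjusted p among the rises. The fungal lectin receptor Clec4n (Dectin-2) had 2077, 1761 and 1940.3 CPM at day 14, against 788, 409.5 and 690.3 CPM at day 2 (1.61 ± 0.33, edgeR adjusted p = 0.027). Ffar4, a receptor for long-chain fatty acids, had 3.01, 4.66 and 27.7 CPM at day 14, against 0.189, 0 and 0.242 CPM at day 2 (6.51 ± 1.38, edgeR adjusted p = 0.030). Chemotactic receptors were in this group, of which neither overlapped between the days. Cxcr3 had 10.4, 11.9 and 6.82 CPM at day 14, against 1.66, 0.0412 and 1.09 CPM at day 2 (3.41 ± 0.76, edgeR adjusted p = 0.047). The oxysterol receptor Gpr183 had 88.5, 89.6 and 109 CPM at day 14, against 38.7, 15.9 and 47.1 CPM at day 2 (2.83-fold higher, edgeR adjusted p = 0.035).

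Some abundant genes also rose. Tgfbi, a matrix protein that TGF-beta induces, had 1947, 1589.8 and 1093 CPM at day 14, against 526, 442 and 564 CPM at day 2 (1.60 ± 0.33, edgeR adjusted p = 0.027). It was the member that edgeR called of 29 tested growth factor and profibrotic genes (list median 0.12). In this list DESeq2 called 1 member higher and 1 lower, and limma voom 1 higher and 3 lower. Ucp2, a carrier of the inner mitochondrial membrane, had 2906, 2767 and 3726 CPM at day 14, against 1406, 1297 and 1682 CPM at day 2 (1.10 ± 0.23, edgeR adjusted p = 0.026), the smallest fold change among the rises. Both lost the call once the exon length trend described below was allowed for (edgeR adjusted p = 0.091 for Tgfbi and 0.12 for Ucp2). The transporter Abcg3, the phospholipid enzyme Lpcat1, the aspartic protease Napsa, the membrane protein Tmem176a, the ubiquitin ligase Rnf180, the guanine nucleotide exchange factor Arhgef10 and the centrosomal protein Cep85 also rose, by log2 fold changes of 1.22 to 3.37. Nrep had 4.52, 6.56 and 2.51 CPM at day 14, against a single count over the 3 day 2 libraries (ratio 249, with a counting interval of 44.3 to 9845).

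The immunoglobulin heavy chain gene Ighm rose while the light chain gene Igkc fell. Ighm had 253, 248 and 112 CPM at day 14, against 17.9, 52.8 and 74 CPM at day 2 (2.09 ± 0.40, edgeR adjusted p = 0.015). Igkc had 3 counts in all at day 14, against 0.663, 1.19 and 15.2 CPM at day 2, a ratio of day 2 to day 14 of 75.5 with a counting interval of 25.4 to 369.7. Of the defining B cell genes, Cd79a was at 0 in all day 14 libraries, and Pax5 was at 0 on both days. The 14 markers of T and NK cells summed to 35.8, 29.3 and 30.1 CPM at day 14, against 37.4, 31.7 and 255 CPM at day 2. Day 2 library C, which was also the highest of its day for Igkc, stood apart in them.

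**Figure D2:**
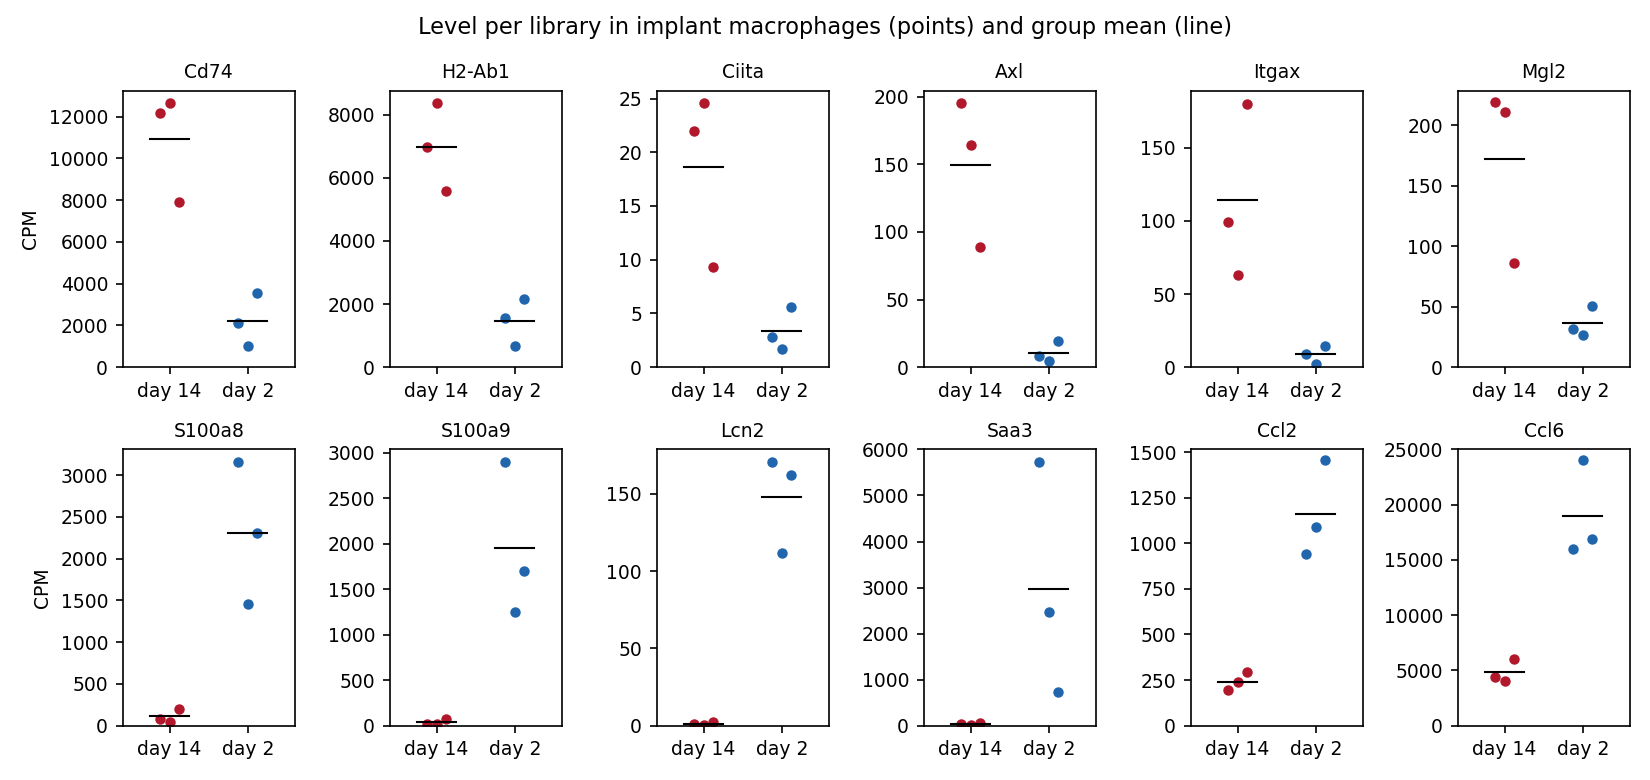
CPM of 12 genes in each macrophage library, with day 14 (red points) left of day 2 (blue points) and the group mean as a line; each panel has its own linear axis from 0. The 3 libraries of one day do not overlap those of the other in any panel. Day 14 library C is the lowest day 14 value for Cd74, H2-Ab1, Ciita, Axl and Mgl2. It is the highest for Itgax and for all the falls shown, S100a8, S100a9, Lcn2, Saa3, Ccl2 and Ccl6.

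Of 22 tested alarmin and antiprotease genes, many of them abundant in neutrophils, 0 rose and 7 fell (31.8% called), with a list median of -2.99. They were 7 of the 45 falls. S100a9 and S100a8 encode the partners of calprotectin, a danger signal. S100a9 (chr3:90692632-90695721, minus strand, GRCm38) stood at 22.6, 18 and 74.6 CPM at day 14, against 2897, 1253 and 1697 CPM at day 2 (-5.67 ± 0.78, edgeR adjusted p = 0.0011). S100a8 stood at 82.9, 48.4 and 198 CPM at day 14, against 3157, 1460.5 and 2303 CPM at day 2 (-4.39 ± 0.74, edgeR adjusted p = 0.0054). In both, library B was the lowest on each day and day 14 library C the highest of its day.

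Lcn2, a lipocalin that withholds iron from bacteria, was almost absent by day 14, with 1.05, 0.233 and 2.11 CPM at day 14, against 170.5, 112 and 162 CPM at day 2 (-7.04 ± 0.86, edgeR adjusted p = 5.7e-04). The acute-phase protein Saa3 had 34.5, 21.8 and 50.2 CPM at day 14, against 5724, 2464 and 720.4 CPM at day 2 (-6.39 ± 1.00, edgeR adjusted p = 0.0027), with day 2 library A highest and C lowest of their day. Wfdc17, a small antiprotease-like protein, had 953, 899 and 1055 CPM at day 14, against 6552, 8493 and 4736 CPM at day 2 (-2.77 ± 0.40, edgeR adjusted p = 0.0012). The haptoglobin gene Hp and the stefin Stfa2l1 were the other called members. The secretory antiprotease Slpi had 378, 250.3 and 474 CPM at day 14, against 2287, 507 and 971 CPM at day 2 and did not pass (-1.77 ± 0.53, edgeR adjusted p = 0.19). The list had 4 calls without day 14 library B.

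To show what lies before 3 of these genes, the RefSeq windows of Lcn2 (chr2:32387690-32387989, minus strand), Saa3 (chr7:46715627-46715926, minus strand) and S100a9 (chr3:90695672-90695971, minus strand) follow, from 250 bases before to 50 bases after the gene start (GRCm38.p6). Capitals mark matches to TTGCNNAA, the type of site that C/EBP factors of myeloid and acute-phase genes bind. In Lcn2 and S100a9 the match reads along the printed strand, and in Saa3 it lies on the opposite strand, so its capitals are the reverse complement.

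Lcn2: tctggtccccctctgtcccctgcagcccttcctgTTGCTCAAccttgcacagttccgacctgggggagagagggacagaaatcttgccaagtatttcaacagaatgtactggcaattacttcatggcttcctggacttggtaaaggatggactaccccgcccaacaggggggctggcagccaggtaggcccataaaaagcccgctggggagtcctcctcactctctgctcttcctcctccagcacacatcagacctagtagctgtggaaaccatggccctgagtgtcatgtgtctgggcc
Saa3: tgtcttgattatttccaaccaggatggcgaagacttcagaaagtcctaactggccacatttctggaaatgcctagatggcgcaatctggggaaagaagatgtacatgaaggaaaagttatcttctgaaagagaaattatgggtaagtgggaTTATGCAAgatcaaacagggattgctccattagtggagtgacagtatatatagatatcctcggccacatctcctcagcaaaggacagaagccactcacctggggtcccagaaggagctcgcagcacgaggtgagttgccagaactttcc
S100a9: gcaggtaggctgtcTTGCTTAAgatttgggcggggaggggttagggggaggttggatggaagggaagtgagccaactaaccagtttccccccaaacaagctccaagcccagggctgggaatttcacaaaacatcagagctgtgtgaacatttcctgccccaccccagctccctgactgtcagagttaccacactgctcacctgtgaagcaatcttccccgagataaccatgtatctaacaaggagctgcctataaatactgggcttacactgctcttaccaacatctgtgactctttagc

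These letters were in 10.8% of 32851 windows on either strand. Of the 45 genes that fell, 35 had a window, and 10 of these held a match, a count of genes rather than of windows. The windows were chosen because they hold a match.

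Neutrophil markers moved with these genes. Of 14 neutrophil marker genes, 8 fell and 0 rose (57.1% called), with a median of -5.16, and the list summed to 239, 159.7 and 359.9 CPM at day 14, against 7328, 3479 and 5067 CPM at day 2. S100a8, S100a9, Lcn2 and Stfa2l1 are in both lists. Ly6g, the surface protein by which mouse neutrophils are recognised, had 0.418, 0 and 0.404 CPM at day 14, against 20.6, 9.3 and 9.91 CPM at day 2 (-5.58 ± 0.97, edgeR adjusted p = 0.010). The resistin-like gene Retnlg had 2.68, 1.24 and 6.95 CPM at day 14, against 414, 167 and 241 CPM at day 2 (-6.24 ± 0.88, edgeR adjusted p = 0.0012). G0s2, an inhibitor of fat breakdown, had 2.18, 2.25 and 8.03 CPM at day 14, against 264, 121 and 279 CPM at day 2 (-5.74 ± 0.78, edgeR adjusted p = 0.0011). No library of one day reached the other in any of these. The granule gene Ngp also fell (-4.74 ± 0.91), and the neutrophil chemokine receptor Cxcr2, at 0.962, 0 and 1.03 CPM at day 14, against 51.6, 52.4 and 62.6 CPM at day 2, did not pass (-6.39 ± 1.49, edgeR adjusted p = 0.057). No marker of this list was at 0 in all libraries of either day, and the share of these genes' fall that neutrophil RNA carried was not tested. In such bulk libraries, fewer cells of a type and less RNA per cell cannot be told apart. The number of neutrophil markers that fell was 5 without day 2 library A, 4 without day 14 library A and 5 without day 14 library B.

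Further falls were of genes outside the 2 lists. The part of neutrophil RNA in these falls, and in those of the paragraphs below, was not tested either. Chil1, a chitinase-like protein, had 0.628, 0.621 and 1.12 CPM at day 14, against 50.5, 41.2 and 43.1 CPM at day 2 (-5.83 ± 0.94, edgeR adjusted p = 0.0038). Pglyrp1, which binds bacterial peptidoglycan, had 0.418, 0.543 and 3.5 CPM at day 14, against 65.9, 38.9 and 46.6 CPM at day 2 (-5.09 ± 0.70, edgeR adjusted p = 0.0011). The kallikrein protease Klk9 had 0, 0 and 0.179 CPM at day 14, against 40, 21.1 and 40.3 CPM at day 2 (-9.09 ± 1.64, edgeR adjusted p = 0.015), the largest fitted fall, and its neighbour Klk8 fell by 6.44. The receptors Mrgpra2a and Mrgpra2b fell by 6.90 and 6.29, the protease Asprv1 by 5.36 and the serine protease Prtn3 by 3.42. Mrgpra2a and Mrgpra2b are near copies of each other, so how their reads were split is uncertain, as it is for Ceacam1 and Ceacam2 and for Wfdc17 and Wfdc18, which also fell.

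Of 25 tested chemokines, 0 rose, 4 fell and 21 did not pass (16.0% called), with 9 fold changes positive, 16 negative and a list median of -1.29. DESeq2 called 10 lower and 1 higher. Together the 25 summed to 12258, 11424 and 15946 CPM at day 14, against 38777, 40251 and 35859.8 CPM at day 2. Ccl6 made up much of the sum, with 4436, 4017 and 6011 CPM at day 14, against 15939.9, 24025 and 16901 CPM at day 2 (-1.98 ± 0.30, edgeR adjusted p = 0.0023). Ccl2 (chr11:82035571-82037453, plus strand, GRCm38), the main attractant of Ccr2-positive monocytes, had 194, 237 and 295 CPM at day 14, against 944, 1090 and 1454 CPM at day 2 (-2.27 ± 0.47, edgeR adjusted p = 0.027). Every day 14 library lay far below the lowest day 2 library, but Ccl2 was called in 0 of the 6 fits without 1 library. Pf4 had 772, 830.4 and 1410.1 CPM at day 14, against 6233, 3742 and 3946 CPM at day 2 (-2.21 ± 0.49, edgeR adjusted p = 0.047). Its neighbour Ppbp, the precursor of neutrophil-activating peptides that platelets store, had 33.1, 33.8 and 31.3 CPM at day 14, against 640, 239 and 530.2 CPM at day 2 (-3.84 ± 0.65, edgeR adjusted p = 0.0073).

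Several other chemokines stood lower without passing. The neutrophil attractant Cxcl2 had 631, 834 and 718 CPM at day 14, against 3290.5, 1282 and 2015 CPM at day 2 (-1.59 ± 0.36), and missed the threshold narrowly (edgeR adjusted p = 0.0502). Ccl7 had 329.7, 338 and 448 CPM at day 14, against 1107, 1599 and 1874 CPM at day 2 (-2.04 ± 0.53, edgeR adjusted p = 0.10). Going the other way, the membrane-bound Cxcl16 had 461, 616 and 583 CPM at day 14, against 228, 168 and 236 CPM at day 2 (1.39 ± 0.31, edgeR adjusted p = 0.0502). The number of chemokines that fell was 2 without day 2 library A, 2 without day 2 library C, 1 without day 14 library A and 1 without day 14 library B.

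Il6 was the called gene among 24 tested inflammatory cytokines (list median -0.32). It had 1.34, 0.427 and 1.79 CPM at day 14, against 42.3, 14.4 and 17.3 CPM at day 2 (-4.38 ± 0.81, edgeR adjusted p = 0.011), so no day 14 library reached 2 CPM. Il1b was lower in every day 14 library, with 1159, 1468 and 961 CPM at day 14, against 4819.6, 1741 and 2527 CPM at day 2. It did not pass edgeR (-1.34 ± 0.44, adjusted p = 0.26) or DESeq2 (adjusted p = 0.074), while limma voom called it lower (adjusted p = 0.034). Tnf had 32, 35.6 and 48.7 CPM at day 14, against 106, 69 and 55.7 CPM at day 2 (-0.99 ± 0.45, edgeR adjusted p = 0.44). In the cytokine list DESeq2 called 2 members lower and limma voom 4, with 0 called higher by either. Il1r2, the decoy receptor that binds interleukin 1, fell, with 58.3, 59.3 and 35.6 CPM at day 14, against 309, 184 and 252 CPM at day 2 (-2.28 ± 0.48, edgeR adjusted p = 0.028).

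Of 24 tested genes of classical monocytes, 3 fell and 0 rose, with a list median of -0.23. The interferon-induced membrane protein Ifitm6 had 35.3, 20.5 and 36.7 CPM at day 14, against 194, 176 and 164 CPM at day 2 (-2.53 ± 0.36, edgeR adjusted p = 0.0012), and the haptoglobin gene Hp described above was among them too. Neither Ly6c2, which encodes the Ly6C used in the sort, nor Ccr2 passed. Ly6c2 had 51.8, 64.9 and 24.2 CPM at day 14, against 64.9, 36.1 and 101 CPM at day 2. Ccr2 had 925, 865 and 359 CPM at day 14, against 499, 518 and 679 CPM at day 2, and the days overlapped in both.

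An enzyme and a receptor of small mediators fell alongside Ltc4s. Hdc, which makes histamine, had 17.4, 5.28 and 5.88 CPM at day 14, against 142, 79.2 and 120.3 CPM at day 2 (-3.58 ± 0.53, edgeR adjusted p = 0.0017). Hcar2, a receptor for niacin and ketone bodies, had 26.5, 27.8 and 11.2 CPM at day 14, against 158, 91.4 and 129.7 CPM at day 2 (-2.53 ± 0.37, edgeR adjusted p = 0.0013). Samsn1, an adaptor of blood cells, had 50.5, 39 and 59.9 CPM at day 14, against 226, 212 and 161 CPM at day 2 (-2.00 ± 0.27, edgeR adjusted p = 9.7e-04). The transcription factor Nfe2, the surface glycoprotein Cd24a, the cell cycle inhibitor Cdkn2d, the class I gene H2-Q10 and the growth factor Nrg4 fell as well. Mast cells are rich in Hdc and Ltc4s, and the 13 listed markers of eosinophils and mast cells, 9 of them tested, summed to 6.07, 4.19 and 5.25 CPM at day 14, against 13.2, 4.57 and 17.2 CPM at day 2, with Cpa3, Cma1 and Fcer1a at 0 in every day 14 library. Their part in these falls was not tested, nor was that of neutrophils.

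The glucose transporter Slc2a3 (GLUT3) was nearly silent at day 14, with 0.0837, 0 and 0.538 CPM, against 35.5, 34.7 and 25.5 CPM at day 2 (-7.28 ± 1.28, edgeR adjusted p = 0.0078). It was the called gene among 23 tested glycolysis genes (list median -0.38). The main transporter Slc2a1 had 593, 376 and 371 CPM at day 14, against 721, 506 and 564 CPM at day 2, with overlap (-0.42 ± 0.31, edgeR adjusted p = 0.62). Of 24 tested hypoxia genes 0 passed by edgeR, with 20 of 24 fold changes negative and a list median of -0.48, 10 of them having an unadjusted p under 0.05. DESeq2 called 4 of them lower, and limma voom called 8 lower and 2 higher. Among them, Bnip3, which triggers removal of mitochondria, had 360.3, 254 and 365 CPM at day 14, against 981, 659 and 853 CPM at day 2 (-1.35 ± 0.34, edgeR adjusted p = 0.088). Subunits of oxidative phosphorylation (list median -0.56, 66 of 74 negative), ribosomal proteins (-0.41, 71 of 76 negative) and mitochondrially encoded genes (-1.09, 9 of 9 negative) also had 0 edgeR calls. At an unadjusted p under 0.05 there were 9, 2 and 7 in the same order of lists, against 0, 0 and 0 called by DESeq2 and 11, 2 and 5 called lower by limma voom. Their medians moved with single libraries. The oxidative phosphorylation median was -1.05 without day 14 library C, -0.35 without day 14 library A and -0.37 without day 14 library B. The ribosomal median was -0.83 without day 14 library C, and -0.20, -0.24 and -0.21 without day 14 library A, day 14 library B and day 2 library A. The mitochondrial median was -1.63 without day 14 library C and -0.63 without day 2 library B. Day 14 library C had the highest mitochondrial share of the 3 at day 14, and the share was higher still in every day 2 library. Whether RNA quality had a part was not tested.

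Long genes tended to stand higher at day 14 than short ones. Across 16205 genes with an exon length, Spearman's rank correlation of that length with the log2 fold change was 0.2, a description across genes, which are not independent. The rises had a median exon length of 3714 bases and the falls of 1732 bases, against 3691 over all genes. With this trend removed, 30 genes were higher and 58 lower, and 71 of the 77 kept their call.

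Lists without a call covered much of what macrophages do. Lysosomal hydrolases and proton pump genes had 0 of 54 called, with 45 of 54 fold changes positive and a median of 0.34 (12 with an unadjusted p under 0.05, 0 called by DESeq2, 4 higher by limma voom). Interferon-stimulated genes had 0 of 49 called, with 42 positive and a median of 0.63, and their sum was 10034, 10585 and 5009 CPM at day 14, against 5249, 6109.9 and 7951 CPM at day 2, so that the days overlapped (8 with an unadjusted p under 0.05, 0 called by DESeq2 or limma voom). The interferon median ran from 0.32 to 1.09 with 1 library left out. With no low count filter, edgeR called 7 lysosomal and 12 interferon-stimulated genes higher and 0 lower. Cell cycle genes (0 of 50, median 0.50), sterol and fatty acid synthesis (0 of 30, 0.50), Nrf2, iron and heme genes (0 of 34, 0.44), matrix proteases (0 of 27, 0.26), endoplasmic reticulum chaperones (0 of 23, 0.21), immediate-early genes (0 of 26, 0.20), NF-kB feedback genes (0 of 24, 0.14) and amino acid stress genes (0 of 29, 0.04) had no member that passed edgeR. In these 8 lists 1 to 7 members had an unadjusted p under 0.05, DESeq2 called 0 to 2 and limma voom 1 to 4. Further lists with 1 member called by edgeR were the lipid-associated macrophage genes (Itgax of 28, median 0.36), alternative activation genes (Mgl2 of 26, 0.35), Fc and inhibitory receptors (Fcrls of 22, 0.20) and pattern receptors (Clec4n of 28, -0.21). In the same order of lists, DESeq2 called 2, 1, 2 and 3 members higher and 0, 3, 1 and 1 lower. By limma voom 3, 3, 2 and 4 members were higher and 1, 4, 1 and 5 lower. Among 31 chemokine and growth factor receptors Cxcr3 rose and Il1r2 fell.

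**Figure D3:**
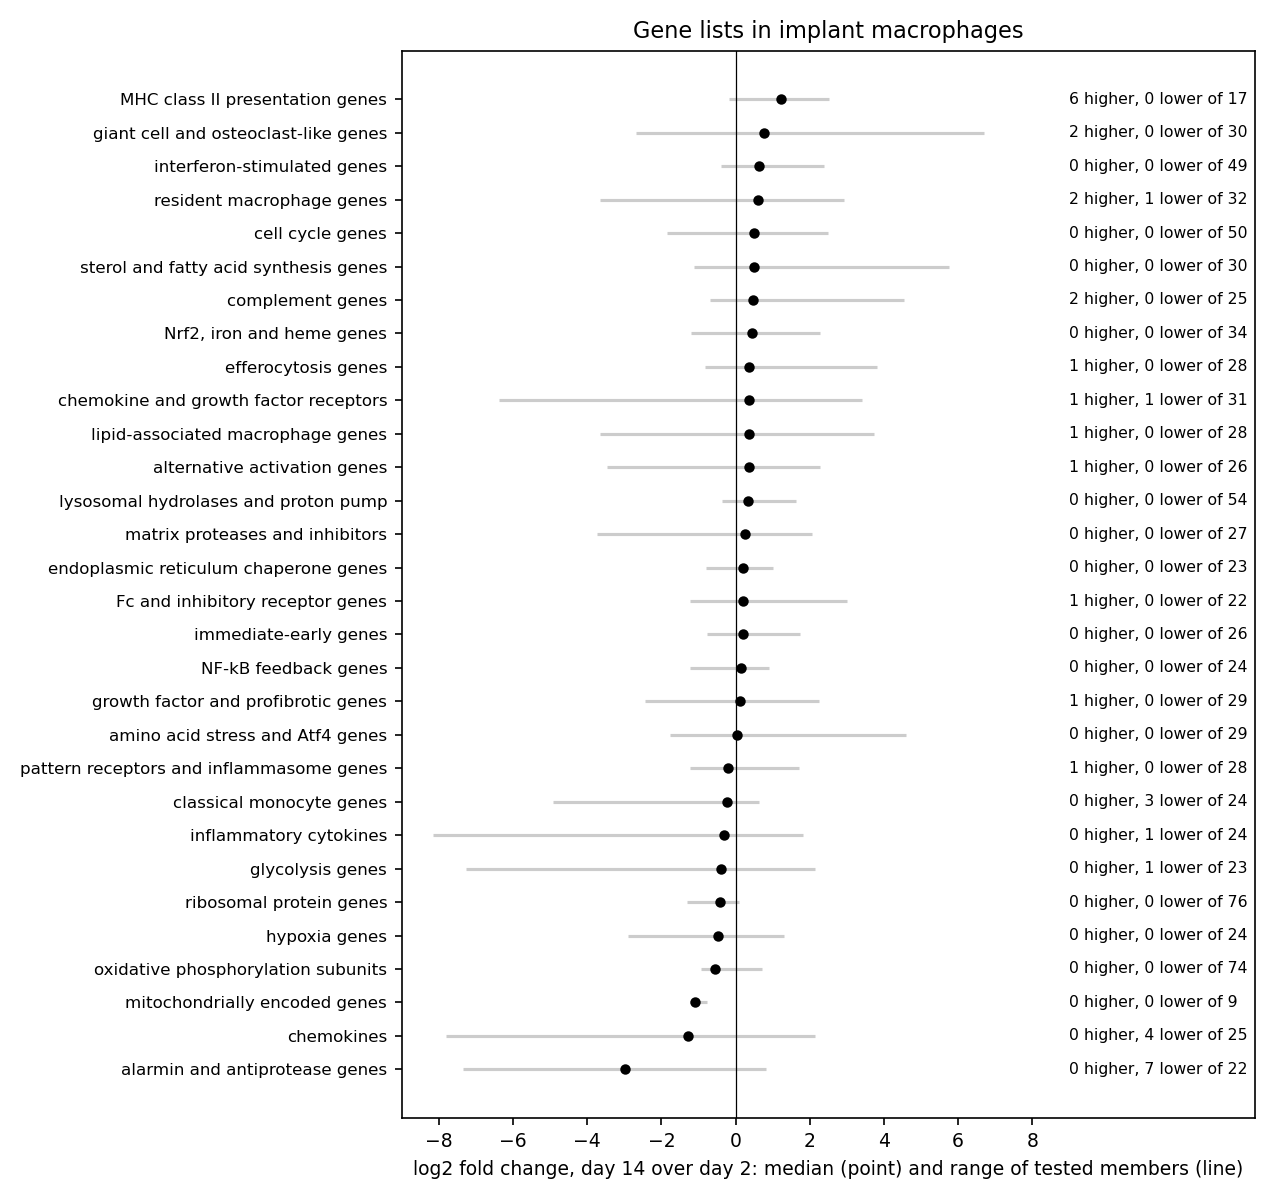
Median log2 fold change of day 14 over day 2 (points) and the range of the tested members (lines) in 30 gene lists, with the number of members called by edgeR at the right. MHC class II genes have the highest median at 1.23 and alarmin and antiprotease genes the lowest at -2.99, and the median of all genes is 0.02.

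Several genes by which implant macrophages are often described did not pass edgeR's test. The matrix phosphoprotein Spp1, among the most abundant transcripts, had 39133, 25805 and 97424 CPM at day 14, against 62237, 30019 and 57227 CPM at day 2 (0.12 ± 0.55, edgeR adjusted p = 0.96). Arg1, the arginase of alternatively activated macrophages, was lower in every day 14 library, with 2721, 1932 and 3169.7 CPM at day 14, against 11036, 7742 and 8900.3 CPM at day 2, but did not pass edgeR (-1.82 ± 0.53, adjusted p = 0.17). DESeq2 (adjusted p = 0.023), limma voom (adjusted p = 0.0037) and edgeR on the compared groups alone (adjusted p = 0.014) called Arg1 lower. Nos2, the inducible nitric oxide synthase, had 126, 23.2 and 35.4 CPM at day 14, against 108, 70 and 65.6 CPM at day 2, with overlap. The lipid-handling receptors and glycoproteins gave a like picture: Trem2 averaged 769 CPM at day 14 and 624 CPM at day 2, Gpnmb 1286 CPM at day 14 and 472 CPM at day 2, and Cd9 2839 CPM at day 14 and 2054 CPM at day 2. Of these 3, the days did not overlap in Gpnmb alone (1.45 ± 0.77, edgeR adjusted p = 0.49).

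The elastase Mmp12 averaged 666 CPM at day 14 and 679.5 CPM at day 2, with overlap. The angiogenic factor Vegfa had 99.8, 271 and 216 CPM at day 14, against 163, 66 and 75.5 CPM at day 2. Heme oxygenase Hmox1 averaged 1214 CPM at day 14 and 1496 CPM at day 2, and the cystine transporter Slc7a11 177 CPM at day 14 and 107 CPM at day 2, both with overlap. The growth factor receptor Csf1r had 2261, 1619 and 826 CPM at day 14, against 714, 756 and 653 CPM at day 2 (1.15 ± 0.40, edgeR adjusted p = 0.29). The adhesion receptor Adgre1 (F4/80) averaged 691 CPM at day 14 and 537 CPM at day 2.

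Between day 28 and day 14 few genes passed. This comparison uses the same day 14 libraries, and 1 gene rose and 0 fell by edgeR (0.00615% of all genes called, 1420 with an unadjusted p under 0.05), against 40 genes called by DESeq2 and 79 by limma voom. Of the 77 genes 0 were among the edgeR calls, and their median log2 fold change of day 28 over day 14 was -0.12 for the 32 that had risen and -0.24 for the 45 that had fallen. The gene called was the zinc finger gene Zfp169, named after its values were seen, with 7.29, 7.87 and 2.51 CPM at day 28, against 0.31 to 0.404 CPM at day 14 (4.06 ± 0.62, edgeR adjusted p = 0.034). Zfp169 was at 3.42 and 4.77 CPM in the 2 controls.

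The means over the whole course are given side by side, since comparisons of controls, day 14 or day 28 with day 2 would all share the day 2 libraries. Cd74 averaged 12427 CPM in controls, 2211 CPM at day 2, 10925 CPM at day 14 and 12325 CPM at day 28. Mgl2 averaged 944 CPM in controls, 36.4 CPM at day 2, 172 CPM at day 14 and 109.9 CPM at day 28, so its day 14 level remained far below controls. Itgax averaged 15.8 CPM in controls, 8.7 CPM at day 2, 114 CPM at day 14 and 546 CPM at day 28, where its libraries spread from 78.6 to 1041 CPM.

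**Figure D4:**
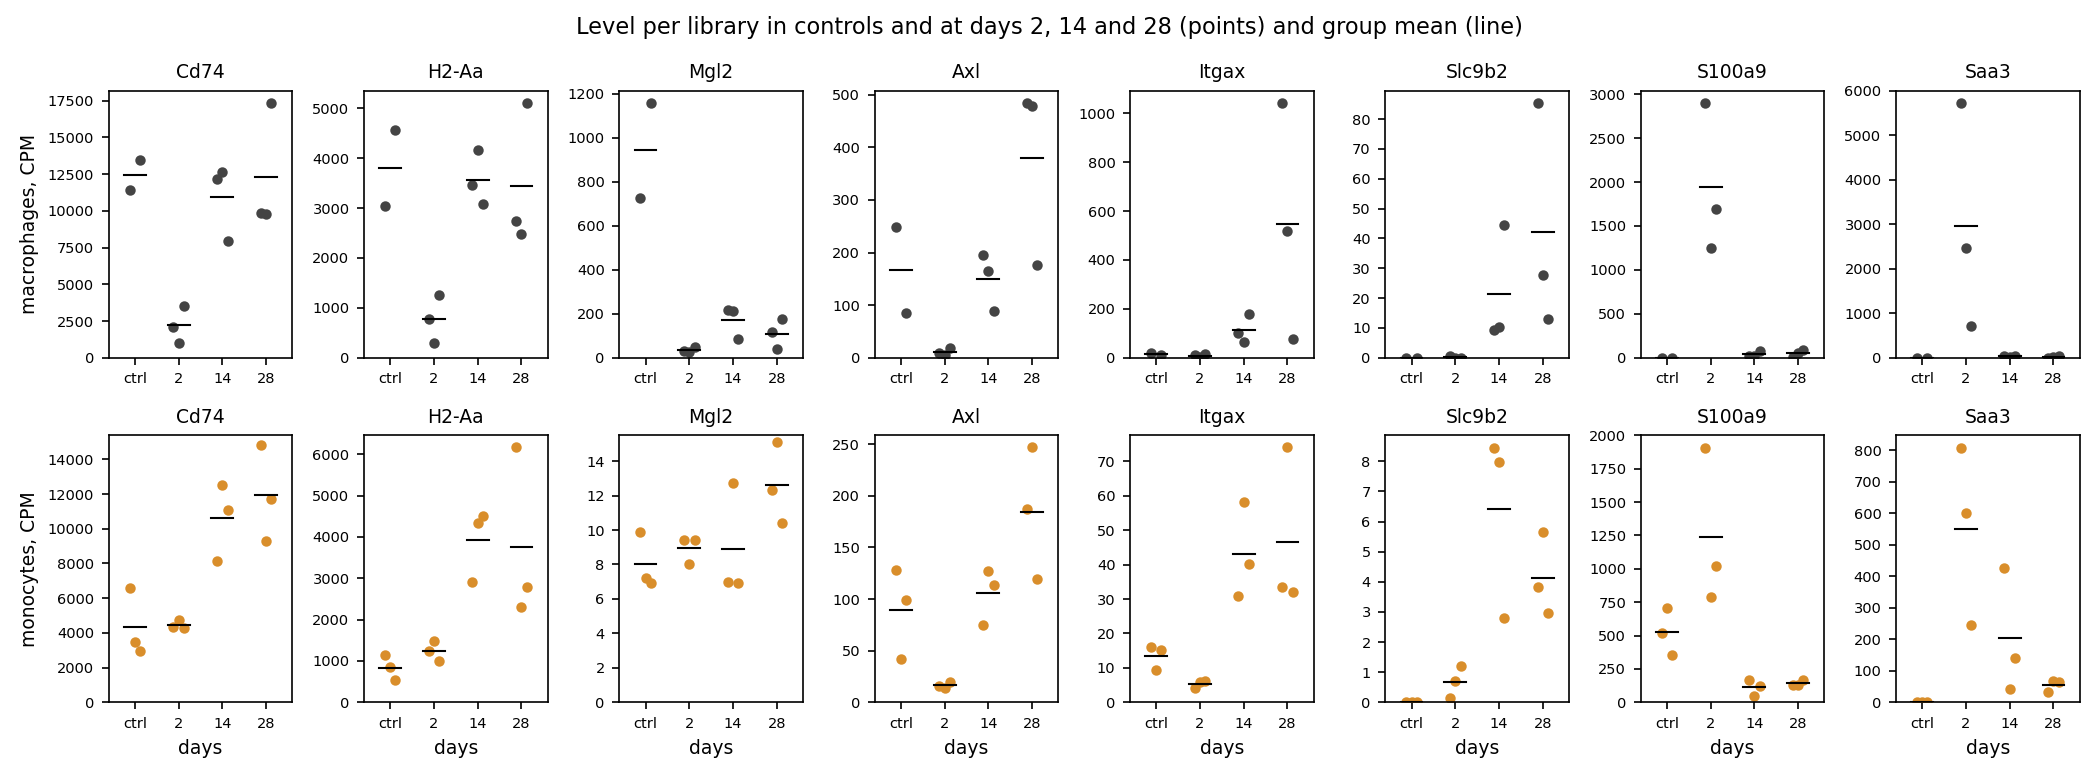
CPM of 8 genes in macrophage libraries (top, grey) and monocyte libraries (bottom, orange) from mice without an implant (ctrl) and at days 2, 14 and 28, with the mean as a line and a separate linear axis from 0 in each panel. Macrophage Cd74 and H2-Aa dip at day 2 and stand near the control level at days 14 and 28, and S100a9 and Saa3 are far higher at day 2 than in the other macrophage groups.

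Monocyte fold changes had the same sign as those of macrophages for most of the 77 genes. In monocytes, 118 of all genes tested passed at day 14 against day 2 (0.726% called). Among the 77 genes, 23 of the 32 macrophage rises had a positive and 41 of the 45 falls a negative fold change, with medians of 0.35 and -1.22. Of them, 4 rises (Nrep, Axl, H2-Eb1 and Clec4n) and 10 falls passed in monocytes too, against 0.486% of all genes called higher and 0.24% called lower there, and 0 passed in the opposite direction. The 10 falls included Lcn2, S100a9, Retnlg, Chil1, G0s2, Ly6g, Ngp, Asprv1 and H2-Q10. Neutrophil markers moved in this cell type as well, with 6 of 14 lower and a median of -3.54.

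The difference between the cell types was tested as an interaction, the macrophage change minus the monocyte change. By edgeR 0 genes passed (2094 with an unadjusted p under 0.05, smallest adjusted p = 0.0868), while DESeq2 called 263 and limma voom 482. The change of these genes was therefore not shown to differ between the cell types by edgeR. Some genes had fold changes far apart. Il6 averaged 14.2 CPM at day 14 and 14 CPM at day 2 in monocytes (0.02, edgeR interaction adjusted p = 0.12), beside -4.38 in macrophages. Ighm had log2 fold changes of 2.09 in macrophages and -0.93 in monocytes, and Il1r2 of -2.28 in macrophages and 1.38 in monocytes (edgeR interaction adjusted p = 0.087 for both). Mgl2, which rose in macrophages, averaged 8.86 CPM at day 14 and 8.95 CPM at day 2 in monocytes.

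**Figure D5:**
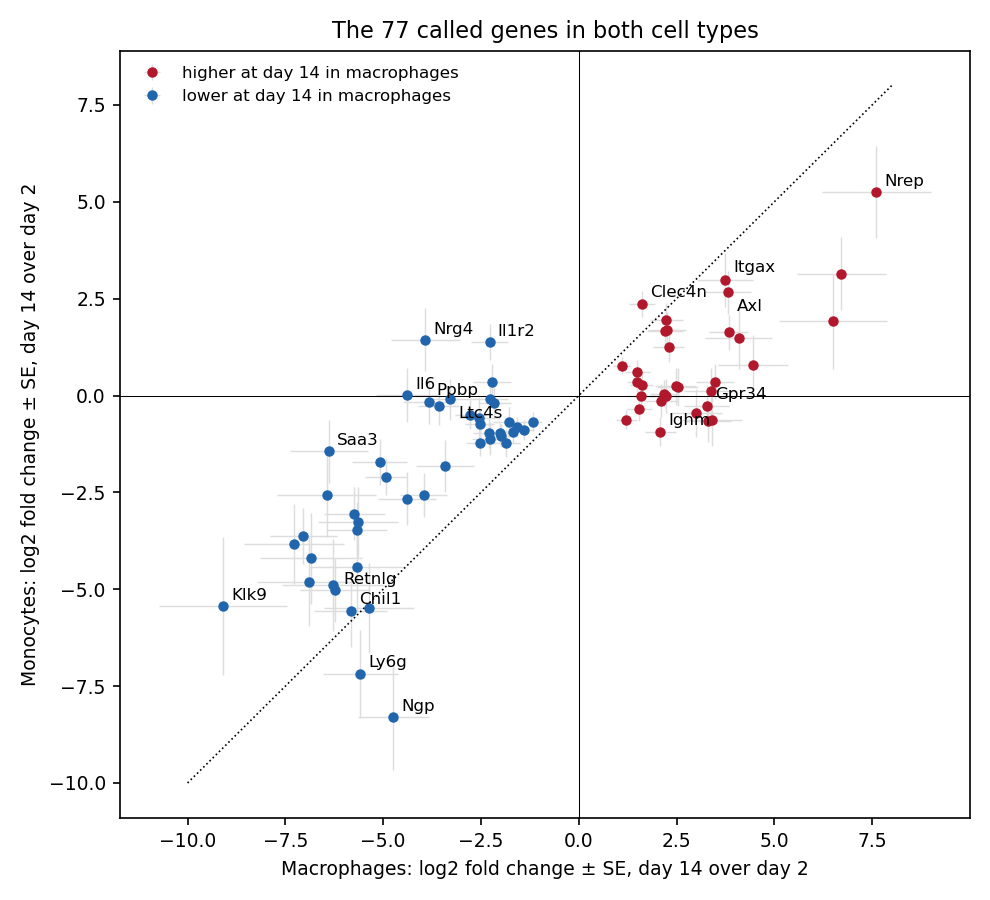
Log2 fold change of day 14 over day 2 in macrophages (x axis) and in monocytes (y axis) for the 77 genes called in macrophages, with bars for the standard error and a dotted line at equal change. Most falls lie below 0 in both cell types, while several rises, among them Gpr34 and Ighm, lie near or below 0 in monocytes.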

How the data were processed

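RNA of sorted macrophages and monocytes was sequenced from SMART-Seq v4 and Nextera XT libraries as single reads, per the labels' protocols. Per the submitters' processing notes, STAR 2.4.1d aligned the reads to GRCm38 and featureCounts of Subread 1.5.1 assigned them. The sources used here do not state the annotation release, the strand setting or the handling of multi-mapping reads. The authors deposited raw counts per gene and library, and GENCODE M21 gave symbols to 47310 of 47729 entries. Samples were grouped by labelled cell type and day.

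In R 4.3.3, edgeR 4.0.16 (filterByExpr by group, TMM, robust quasi-likelihood F test) was fitted to all 23 libraries, with Benjamini-Hochberg adjusted p under 0.05 and a prior count of 0.125. Standard errors were the size of the log2 fold change divided by the root of F. Counts ran from 9303153 to 32994092 per library, so 3 counts were at most 0.322 CPM. Ratios against 1 to 3 counts carry exact 95% counting intervals, which cover counting error only. Alternatives were RLE scaling, no filter, DESeq2 1.42.0, limma 3.58.1 voom, fewer libraries, a replicate block, thinned counts, a larger prior count (2) and leaving out single libraries; an exon length offset was added after the data were seen. The test was checked on simulated data.

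The comparison, gene lists and named genes were chosen with earlier results of these data known. Named are the 15 largest rises and the 15 largest falls that reach 10 CPM in the higher group without overlap, up to 5 called members of each list, a set list of macrophage genes, and the other called genes. Promoters were to be those of the 4 largest rises and falls; instead 6 were picked by motif after their sequences were seen. RefSeq sequences are from GRCm38.p6. Some genes that these rules name are not reported here.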

Additional observations from a re-analysis of the deposited data

How the results depend on the processing

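All 77 genes kept their direction under every alternative. Their calls were kept in 77 genes with RLE scaling, no filter and DESeq2, 76 with voom, 75 with thinned counts, 71 with the exon length offset, 60 with the compared groups alone and 40 with the 11 macrophage libraries alone. Genes higher and lower at day 14 in macrophages numbered 450 and 232 with no low count filter, 148 and 186 with DESeq2, 261 and 424 with limma voom, 55 and 90 with the groups compared alone, and 19 and 30 with the macrophage libraries alone. Leaving out 1 library gave 8 to 60 higher and 19 to 48 lower. For day 28 against day 14 these were 68 and 184 with no filter, 15 and 25 with DESeq2 and 26 and 53 with voom. They were 0 higher with the groups compared, the macrophage libraries alone, thinned counts or the replicate block, and 0 to 2 higher and 0 to 22 lower without 1 library. The interaction gave 412 and 216 with no filter, 88 and 175 with DESeq2, 123 and 359 with voom, and 2 lower with the groups compared or the length offset. It gave 0 to 8 higher and 0 to 7 lower without 1 library. Monocytes gave 396 and 345 with no filter, 381 and 205 with DESeq2, 344 and 181 with voom, 16 lower with the groups compared, and 0 to 96 higher and 0 to 63 lower without 1 library. The causes were not tested, other than fewer libraries and genes. The replicate block gave 26 higher and 40 lower in macrophages, 64 of the 77 shared, and 23 lower in monocytes. Same-letter libraries of day 14 and day 2 had correlated deviations of -0.075, 0.052 and -0.005 for A, B and C, so the letters are not taken as pairs. Day 2 library C, with 9303153 counts, limits the low genes most.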
